A study of Homo sapiens with 10 samples.

Results

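The genes CBS, CTH, MAT2A, MAT2B, AHCY, MTR and MTRR encode the transsulfuration enzymes and the core of the methionine cycle, and AHCYL1 encodes an AHCY-like protein. They were listed by name, with earlier results of these data known, and are 8 of the 78894 gene IDs in the table. All 8 passed the filter on low values, which kept 29045 genes. Each was described in the established cell line HEK293T, derived from human embryonic kidney, that had been cultured for 24 h in media differing in cysteine. The study used RNA-seq of complete and cysteine-free medium to ask whether transcription accounts for a protein change on cysteine starvation. Its text describes no RNA-seq with excess cysteine, and the members were not its subject.

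The groups were 0X-Cys (medium without cysteine, 2 libraries), 1X-Cys (complete medium, 4 libraries) and 10X-Cys (a 10-fold cysteine excess, 4 libraries). All libraries came from the same line with no genotype or transgene named, were labelled as biological replicates and were made from poly(A)-selected RNA. Methionine was supplied in every medium. The paper's RNA-seq methods refer to its amino acid starvation treatment, whose starvation medium had dialyzed serum and its own glucose and glutamine additions. Its other cysteine protocol changed cysteine alone. Which protocol each library followed is not given in the sources used here. Values are normalized counts, that is, reads per gene divided by the size factor of the library.

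In the methionine cycle, MAT2A and its partner MAT2B charge methionine to S-adenosylmethionine (SAM), the methyl donor of the cell. Methyl transfer leaves S-adenosylhomocysteine, which AHCY splits to homocysteine, and MTR, kept active by MTRR, remethylates homocysteine to methionine. CBS and CTH instead pass homocysteine through cystathionine to cysteine, a route known best from liver, while AHCYL1 is an AHCY-like protein that binds the inositol trisphosphate receptor.

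Between 34836014 and 61654861 reads per library fell on genes, and no replicate pair agreed within sampling noise (chi-square per degree of freedom 3.53 to 14.7). The members carried 1117 to 28431 reads per library, so the number of libraries and not the read number limits the precision. The 6 markers listed for embryonic kidney and the HEK293 lineage summed to between 47259 and 58108. Most of this sum came from VIM (25564 to 36308) and NEFM (12200 to 15838), and PAX2 and LHX1 added little to it. Of these markers PAX2 was at 270.5 and 366 in 0X-Cys and at 103 to 179.7 in the other media, and LHX1 was at 174 to 232 over all media. In contrast, podocyte, hepatocyte and endothelial markers each summed to 32.1 or less. Fibroblast markers summed to 867 to 1059 in 1X-Cys, 679 to 830 in 0X-Cys and 633 to 711 in 10X-Cys, and the 3 immune markers to 126 to 214. Transcripts of mitochondrial DNA took 4.51% to 5.71% of reads in 0X-Cys and 1X-Cys and 0.117% to 0.146% in 10X-Cys. The part of these differences in the results was not tested, except that equal totals over nuclear genes were tried as another scaling. In bulk RNA, fewer cells of a type and less RNA per cell cannot be told apart.

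Of the 8 members, CTH rose in both media relative to 1X-Cys, 2.93-fold without cysteine and 4.93-fold with excess. MTR moved in opposite directions, to 1.33-fold in 0X-Cys and 0.748-fold in 10X-Cys. CBS rose without cysteine, MAT2A fell with excess, and MAT2B fell in both media. AHCY, AHCYL1 and MTRR did not pass the test in either comparison with 1X-Cys.

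The call rests on limma's moderated test, 2-sided, adjusted by Benjamini-Hochberg over all genes kept, with 0.01 as the largest adjusted p allowed. Between 0X-Cys and 1X-Cys, 4 of 8 members were called, 3 higher and 1 lower, where 15.9% of all genes were called (7.39% higher and 8.51% lower). Leaving out 1 library of 0X-Cys lowered the number of genes called from 4618 to 1198 (without replicate 1) or 978 (without replicate 2) and left 1 member, CTH. Since the members were chosen with results known, their share above the background is a description. Between 10X-Cys and 1X-Cys, 4 of 8 were called, 1 higher and 3 lower, against 46.0% of all genes (23.1% higher and 22.9% lower). Between 0X-Cys and 10X-Cys, 5 of 8 were called, 3 higher in 0X-Cys and 2 lower, against 48.0% (23.6% higher and 24.4% lower). The shares of members called in the comparisons with 10X-Cys were therefore near the background. The median log2 fold change of the members was -0.00, 0.01 and -0.06 in these comparisons, and that of all genes 0.00, 0.01 and -0.00. The comparisons of 0X-Cys and of 10X-Cys with 1X-Cys share the same 4 control libraries.

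**Figure D1:**
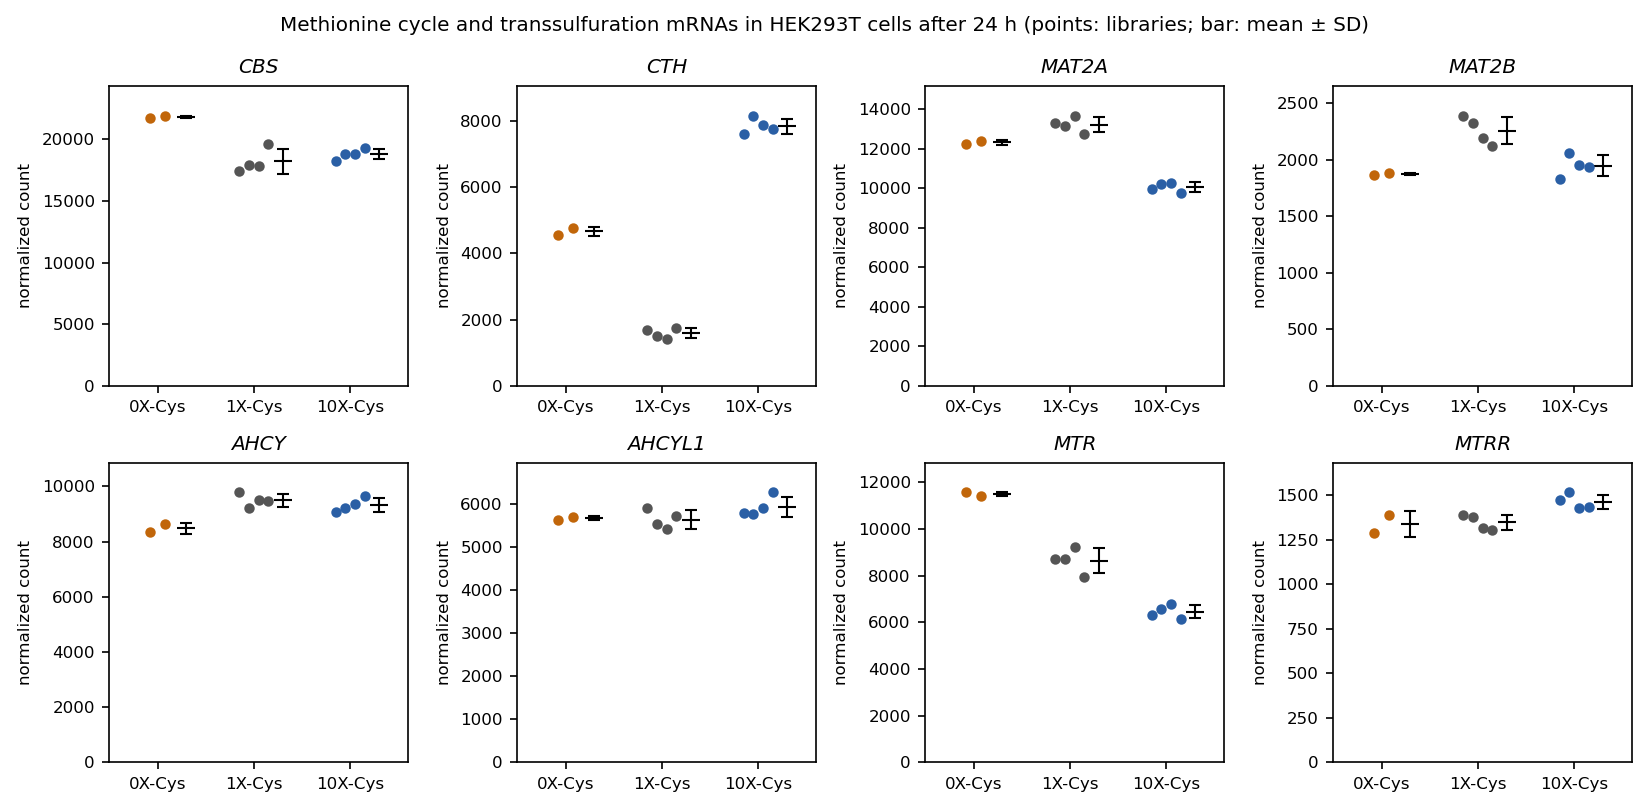
Normalized counts (vertical axes, from 0) of the 8 members in each library (points) of 0X-Cys, 1X-Cys and 10X-Cys, with the mean ± SD of each group as a black bar. The CTH points form separate levels in each medium, lowest in 1X-Cys (1428 to 1748) and highest in 10X-Cys (7602 to 8146), and those of MTR descend from 0X-Cys through 1X-Cys to 10X-Cys.

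CTH (ENSG00000116761, GRCh38 chromosome 1, 70411218 to 70439851, plus strand) encodes cystathionine gamma-lyase, which releases cysteine from cystathionine. Its normalized counts were 4568 and 4755 in 0X-Cys. They were 1686, 1516, 1428 and 1748 in 1X-Cys, and 7602, 8146, 7865 and 7741 in 10X-Cys. No library of one medium overlapped those of another, with 1X-Cys lowest and 10X-Cys highest. The group means were 4662 ± 132 (SD, n = 2), 1594 ± 148 (SD, n = 4) and 7839 ± 231 (SD, n = 4).

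The log2 fold change of CTH was 1.55 in 0X-Cys (standard error 0.08, limma adjusted p = 3.94e-08) and 2.30 in 10X-Cys (standard error 0.06, limma adjusted p = 6.13e-15). Compared directly, 0X-Cys lay 0.75 below 10X-Cys on the log2 scale (95% interval -0.83 to -0.67, limma adjusted p = 5.50e-14). CTH thus had higher counts both without cysteine and with excess, and the 2 increases differed in size. Every alternative kept both increases past the threshold. The exact permutation test of CTH alone, 2-sided, gave p = 0.133 for 0X-Cys and p = 0.0286 for 10X-Cys, each the smallest that 2 against 4 and 4 against 4 libraries allow.

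CBS (ENSG00000160200, chromosome 21, 43053191 to 43076943, minus strand) encodes cystathionine beta-synthase, which commits homocysteine to transsulfuration. Its normalized counts were 21725 and 21881 in 0X-Cys. They were 17442, 17901, 17809 and 19635.5 in 1X-Cys and 18251, 18836, 18762 and 19293 in 10X-Cys. The 0X-Cys libraries were above all others, and 1X-Cys and 10X-Cys overlapped.

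The log2 fold change of CBS in 0X-Cys was 0.26 (standard error 0.05, limma adjusted p = 0.00229), or 1.20-fold. Without either 0X-Cys library the limma adjusted p was 0.0417 and 0.0510, and without 1X-Cys replicate 2 it was 0.0133, so this call was lost, while over all alternatives the log2 fold change ranged from 0.24 to 0.30. In 10X-Cys it was 0.05 (95% interval -0.04 to 0.13, limma adjusted p = 0.319), which with equal library totals became 0.15 (limma adjusted p = 0.00349). The direct difference of 0X-Cys from 10X-Cys was 0.22 (limma adjusted p = 7.06e-06).

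The level of CBS has an uncertain scale. GENCODE 44 marks a second gene, ENSG00000274276 on chromosome 21 (6444869 to 6467513, minus strand), as an artifactual duplication of CBS in the assembly. Of the 75-base windows in the exons of CBS, 94.3% of 5310 occur again on chromosome 21. The table gives this copy 83.5% to 86.5% of the CBS value in 0X-Cys and 1X-Cys and 87.8% to 88.3% in 10X-Cys. The copy itself differed from 1X-Cys by 0.29 on the log2 scale in 0X-Cys (limma adjusted p = 0.00116) and by 0.11 in 10X-Cys (limma adjusted p = 0.0276). How reads that match both places were counted is not given in the sources used here.

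MAT2A (ENSG00000168906, chromosome 2, 85539168 to 85545281, plus strand) encodes the catalytic subunit of the SAM synthetase found outside adult liver. Its mRNA is known to carry hairpins after the coding sequence that METTL16, a methyltransferase responding to SAM, methylates in the 9-letter motif TACAGANAA of the DNA, with A or G at N. The last exon of MAT2A (85543670 to 85545281) holds 6 such motifs, all after the coding end and all on the plus strand. They are shown because METTL16, whose level is given beside that of MAT2A, acts on such motifs, with the motif in capitals between 10 bases on each side, as in the GRCh38 reference.
site 1, chr2:85543802-85543830: tggcgtaggcTACAGAGAAgccttcaagc
site 2, chr2:85544589-85544617: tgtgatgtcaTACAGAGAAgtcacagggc
site 3, chr2:85544774-85544802: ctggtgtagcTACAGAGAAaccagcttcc
site 4, chr2:85544889-85544917: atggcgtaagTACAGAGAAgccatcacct
site 5, chr2:85545004-85545032: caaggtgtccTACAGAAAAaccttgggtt
site 6, chr2:85545112-85545140: gctggtgtggTACAGAGAAgccagcttgt

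Of these motifs 5 read TACAGAGAA, and that of site 5 reads TACAGAAAA. The motif was searched on the transcript strand, and in the last 1509 bases of 15381 MANE Select transcripts at least that long, 3.45% held it at least once and 1 held it 6 times or more. A match is a description of letters and not of methylation.

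The normalized counts of MAT2A were 12248 and 12404 in 0X-Cys. They were 13319, 13169, 13662 and 12739 in 1X-Cys and 9958, 10243, 10292 and 9753 in 10X-Cys. The 10X-Cys libraries lay below all others, and those of 0X-Cys lay just below the lowest of 1X-Cys. In 10X-Cys, MAT2A changed by -0.39 on the log2 scale (standard error 0.04, limma adjusted p = 6.06e-08), or 76.1% of the level in 1X-Cys. In 0X-Cys it was -0.10 (95% interval -0.20 to 0.00, limma adjusted p = 0.133), and the direct difference of 0X-Cys from 10X-Cys was 0.29 (limma adjusted p = 2.05e-07).

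METTL16 fell in both media, by 0.32 on the log2 scale in 0X-Cys (limma adjusted p = 0.00232) and by 0.38 in 10X-Cys (limma adjusted p = 1.38e-06), and the first of these calls was lost without either 0X-Cys library or 1X-Cys replicate 1. MAT2A shares 562 exon bases, 12.5% of its own, with GGCX on the other strand. GGCX, a vitamin K-dependent carboxylase, had a log2 fold change of -0.03 in 0X-Cys (limma adjusted p = 0.758) and -0.21 in 10X-Cys (limma adjusted p = 0.000322). The strand setting of the counting is not given in the sources used here.

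MAT2B (ENSG00000038274, chromosome 5, 163503114 to 163519558, plus strand) encodes the regulatory subunit that binds MAT2A. Its normalized counts were 1866 and 1883 in 0X-Cys. They were 2387, 2324, 2193 and 2123 in 1X-Cys and 1832, 2061, 1954 and 1941 in 10X-Cys. All 1X-Cys libraries were above those of the other media. Relative to 1X-Cys, MAT2B changed by -0.27 on the log2 scale in 0X-Cys (standard error 0.07, limma adjusted p = 0.00928) and -0.21 in 10X-Cys (standard error 0.05, limma adjusted p = 0.00237).

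The MAT2B calls were the ones lost most often among the members called against 1X-Cys. The call in 0X-Cys was lost in 9 of 19 alternatives, among them leaving out either 0X-Cys library or 1X-Cys replicates 1 or 2 (limma adjusted p from 0.0297 to 0.0920). That in 10X-Cys was lost in 5 of 21, where with equal totals the log2 difference was -0.11 (limma adjusted p = 0.0636) and without 10X-Cys replicate 1 or 1X-Cys replicates 1 or 2 the limma adjusted p was between 0.0102 and 0.0124. The direct difference between 0X-Cys and 10X-Cys was -0.05 (95% interval -0.16 to 0.06, limma adjusted p = 0.404).

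AHCY (ENSG00000101444, chromosome 20, 34280268 to 34311802, minus strand) encodes the hydrolase that removes S-adenosylhomocysteine, an inhibitor of methyltransferases. Its normalized counts were 8349.5 and 8626 in 0X-Cys. They were 9778, 9213, 9504 and 9471 in 1X-Cys and 9064, 9224, 9346 and 9653 in 10X-Cys. The 0X-Cys libraries were below all others, and 1X-Cys and 10X-Cys overlapped.

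For AHCY the log2 difference from 1X-Cys was -0.16 in 0X-Cys (95% interval -0.27 to -0.06, limma adjusted p = 0.0246), short of the threshold. In 10X-Cys it was -0.03 (95% interval -0.10 to 0.05, limma adjusted p = 0.559), and it turned positive with equal totals (0.08), with equal totals over nuclear genes (0.01) and with quantile normalization (0.05). Compared directly, 0X-Cys differed from 10X-Cys by -0.14 on the log2 scale (limma adjusted p = 0.00380), a call lost without either 0X-Cys library (limma adjusted p = 0.0651 and 0.0102), without 10X-Cys replicate 4 (limma adjusted p = 0.0136) or with all 3 groups in 1 fit (limma adjusted p = 0.0130). AHCY shares 139 exon bases with a lncRNA, ENSG00000250917, on the same strand.

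AHCYL1 (ENSG00000168710, chromosome 1, 109984765 to 110023742, plus strand) had normalized counts of 5646 and 5711 in 0X-Cys. They were 5905, 5543, 5417 and 5724 in 1X-Cys and 5807, 5773, 5925 and 6277 in 10X-Cys. The 1X-Cys libraries overlapped both other groups. In 0X-Cys the log2 difference from 1X-Cys was 0.01 (95% interval -0.11 to 0.12, limma adjusted p = 0.925). In 10X-Cys it was 0.07 (95% interval -0.01 to 0.16, limma adjusted p = 0.142), and it passed the threshold at 0.18 with equal totals and 0.14 with quantile normalization.

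**Figure D2:**
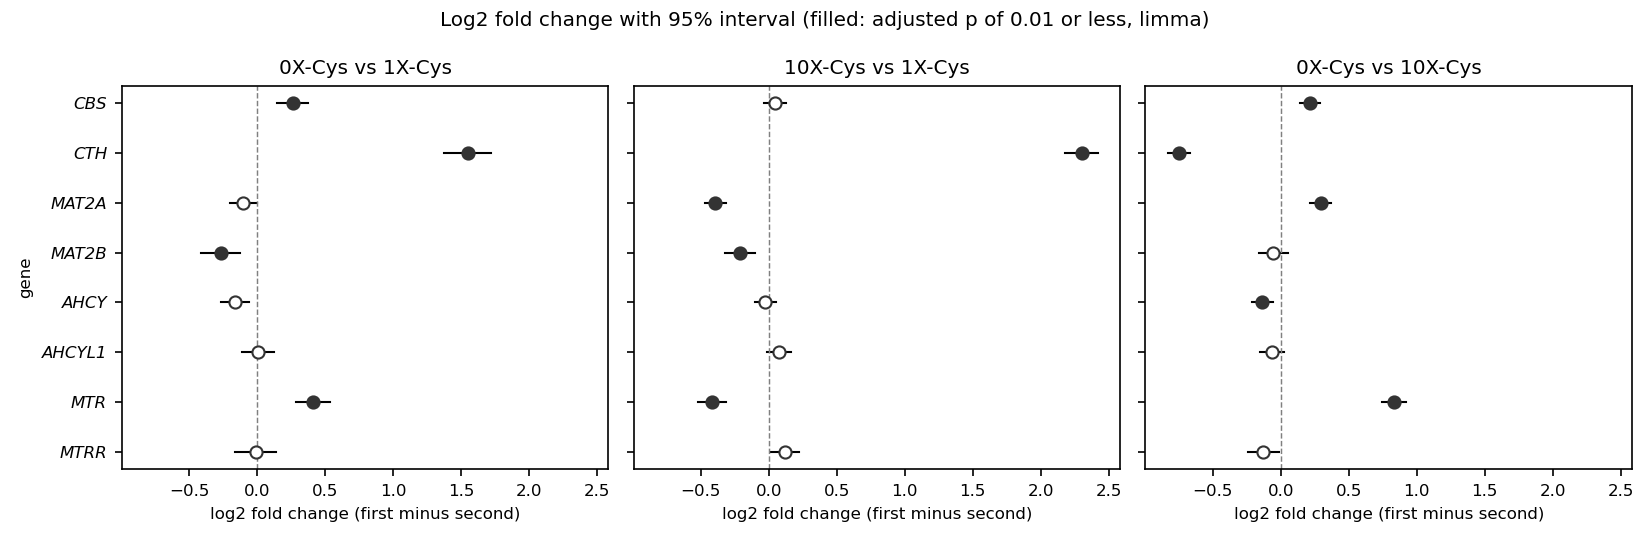
Log2 fold change (horizontal axes, first group minus second) of each member with its 95% interval from limma, in 3 panels for 0X-Cys vs 1X-Cys, 10X-Cys vs 1X-Cys and 0X-Cys vs 10X-Cys. Filled points passed the threshold of 0.01 on the adjusted p. CTH stands farthest to the right against 1X-Cys (1.55 and 2.30), and MTR changes side between the first panel (0.41) and the second (-0.42).

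MTR (ENSG00000116984, chromosome 1, 236795260 to 236921278, plus strand) encodes methionine synthase, which uses cobalamin and methyl folate. Its normalized counts were 11560.2 and 11429 in 0X-Cys. They were 8697, 8704, 9227 and 7943.5 in 1X-Cys and 6318, 6583, 6800.2 and 6136 in 10X-Cys. The 3 media did not overlap, and the counts descended as cysteine rose.

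The log2 fold change of MTR was 0.41 in 0X-Cys (standard error 0.06, limma adjusted p = 0.000198) and -0.42 in 10X-Cys (standard error 0.05, limma adjusted p = 8.72e-07). The direct difference of 0X-Cys from 10X-Cys was 0.83 (95% interval 0.75 to 0.92, limma adjusted p = 1.38e-14), or 1.78-fold. The decrease in 10X-Cys remained past an adjusted p of 0.01 in every alternative that did not ask for a 2-fold change. The increase in 0X-Cys missed the threshold with only 1 library of 0X-Cys left (limma adjusted p = 0.0119 and 0.0111), at log2 fold changes of 0.41 and 0.42.

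MTRR (ENSG00000124275, chromosome 5, 7851186 to 7906025, plus strand) encodes the reductase that restores the cobalamin of MTR. Its normalized counts were 1288 and 1389 in 0X-Cys. They were 1388, 1379.9, 1319 and 1303 in 1X-Cys and 1474, 1516, 1429 and 1434 in 10X-Cys. The 10X-Cys libraries were above all others, and 0X-Cys and 1X-Cys overlapped.

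For MTRR the log2 difference from 1X-Cys was -0.01 in 0X-Cys (95% interval -0.16 to 0.14, limma adjusted p = 0.939), with either sign among the scalings. In 10X-Cys it was 0.12 (95% interval 0.01 to 0.23, limma adjusted p = 0.0519), and 0.22 with equal totals (limma adjusted p = 0.000836). MTRR and FASTKD3, which lies head to head on the other strand, share 100 exon bases, and FASTKD3 fell by 0.43 on the log2 scale in 10X-Cys (limma adjusted p = 0.000602). Apart from MAT2A, AHCY and MTRR, the members share exon bases with no other gene of GENCODE 44.

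Scaling to equal library totals, in place of the deposited size factors, shifted the whole comparison of 10X-Cys with 1X-Cys. The median log2 fold change of all genes between 10X-Cys and 1X-Cys was 0.01 with the deposited size factors and 0.12 with equal totals, and the share of called genes that were higher was 50.3% and 61.8%. Under equal totals 6 of 8 members were called in 10X-Cys, and CTH, MTR and MAT2A kept their directions.

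Levels were compared between genes as normalized counts per kb of the MANE Select transcript, the reference isoform of each gene. In 1X-Cys the order was CBS at 7293 ± 392, MAT2A at 4694 ± 136, AHCY at 4415 ± 107, AHCYL1 at 1432 ± 54.0, MAT2B at 1093 ± 58.3, MTR at 819 ± 50.1, CTH at 763 ± 70.8 and MTRR at 415 ± 13.2 (counts per kb, SD, n = 4). MAT2A and AHCY overlapped in range, as did MTR and CTH, and the scale of CBS is uncertain as said. In 0X-Cys, CTH ranked 4 of 8 at 2230 ± 63.1 counts per kb (SD, n = 2), and in 10X-Cys it ranked 3 of 8 at 3751 ± 111 (SD, n = 4), overlapping MAT2A at 3572 ± 89.8. MTRR was last in all 3 media, and CBS was first, but with lengths taken over all annotated exons CTH was first in 10X-Cys and MAT2A in 1X-Cys, and MTRR (225 counts per kb) was just above MAT2B (224) in 10X-Cys.

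Ratios between members do not depend on the scaling of a library, and 4 were formed after the values had been seen. The ratio of CTH to CBS per kb was 0.255 ± 0.00593 in 0X-Cys, 0.105 ± 0.00836 in 1X-Cys and 0.498 ± 0.0153 in 10X-Cys (SD, n = 2, 4 and 4). This ratio inherits the uncertain scale of CBS. The ratio of MTR to MTRR was 2.65 ± 0.163, 1.97 ± 0.122 and 1.36 ± 0.0709. That of MAT2A to MAT2B was 4.82 ± 0.0107, 4.30 ± 0.221 and 3.79 ± 0.158, and that of AHCYL1 to AHCY was 0.365 ± 0.00544, 0.324 ± 0.00911 and 0.348 ± 0.00566. MTR relative to MTRR and MAT2A relative to MAT2B descended from 0X-Cys to 10X-Cys, whereas CTH relative to CBS and AHCYL1 relative to AHCY were lowest in 1X-Cys. Since the ratios were picked from the values, they are given without a test.

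**Figure D3:**
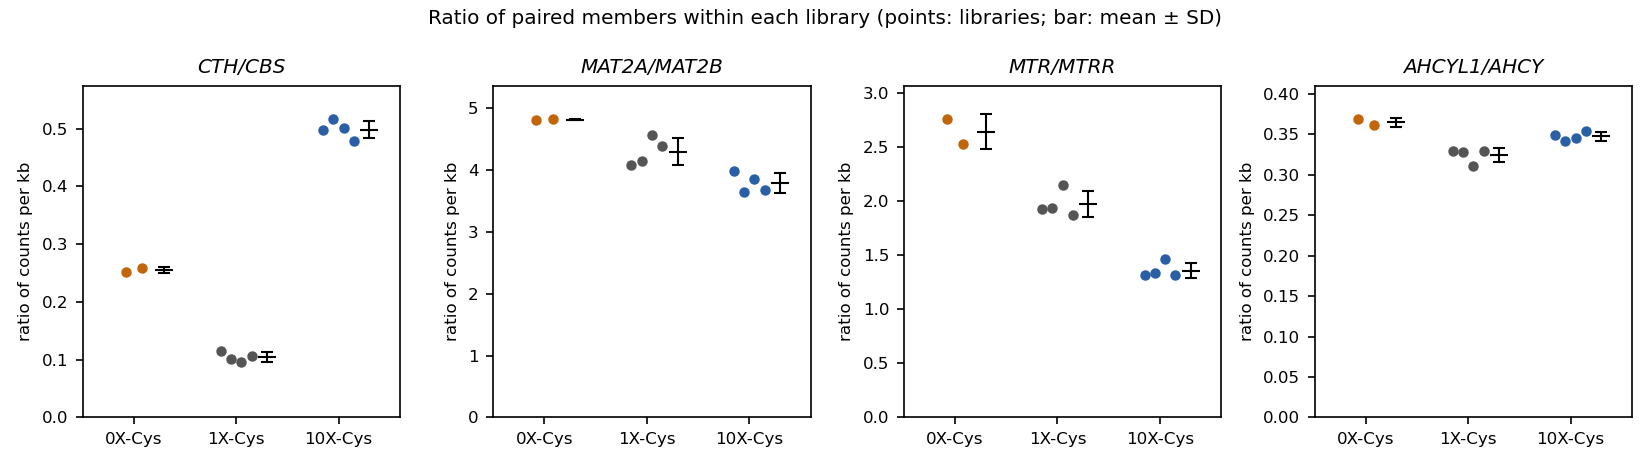
Ratio of normalized counts per kb of 4 pairs of members (vertical axes, from 0) within each library (points), with the mean ± SD of each medium as a black bar. CTH/CBS is lowest in 1X-Cys (0.105) and highest in 10X-Cys (0.498), and MTR/MTRR falls from 2.65 to 1.36.

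The genes whose log2 values ran most like each member over the 10 libraries were taken from 12564 protein-coding genes, as a description in which all points share libraries and media. For CTH they were CLIC4 (Pearson r = 0.998), PDCD4 (0.995) and SLC1A4 (0.995). For MTR they were SRD5A3 (0.992), SIRT5 (0.991) and RNF141 (0.991), and for MAT2A SLIT2 (0.996), SCARB1 (0.994) and SUB1 (0.994). CBS was closest to PTP4A3 (0.975), MAT2B to DDX46 (0.975), AHCY to PIP4P1 (0.982) and MTRR to BTBD10 (0.971). AHCYL1, which was called in none of the 3 comparisons, was closest to RPL23A (0.902).

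Genes next to the members were read from 6 lists. Of the 8 genes listed for methionine uptake, which are carriers and the heavy chain SLC3A2, 4 rose and 2 fell in 0X-Cys. Of all genes, 7.39% rose and 8.51% fell there. In 10X-Cys, 4 of the list rose and 1 fell, where 23.1% of all genes rose and 22.9% fell. SLC7A5, the large neutral amino acid carrier, had a log2 fold change of 0.73 in 0X-Cys (limma adjusted p = 2.88e-07) and 0.44 in 10X-Cys (limma adjusted p = 5.39e-08). Its heavy chain SLC3A2 rose by 0.52 and 1.02, and the related carrier SLC43A1 by 1.13 and 1.10. SLC38A2, a sodium-coupled carrier of small neutral amino acids, rose by 0.68 and 0.97. SLC43A2 went the other way at -0.58 and -0.88, and the first of these was lost in 7 alternatives, including without either 0X-Cys library and without 1X-Cys replicate 1, 2 or 4. SLC7A6 also fell in 0X-Cys, by 0.39 (limma adjusted p = 0.000161), a call kept in all 18 alternatives without a 2-fold limit. In 10X-Cys it was at 0.01. The median of the list was 0.31 in 0X-Cys and 0.28 in 10X-Cys, against 0.00 and 0.01 over all genes.

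The 8 genes that take up and handle cobalamin, the cofactor of MTR, split in direction. In 0X-Cys 2 rose and 3 fell, against 7.39% and 8.51% of all genes. In 10X-Cys 1 rose and 4 fell, against 23.1% and 22.9% of all genes. CD320, the receptor for transcobalamin, fell by 0.39 and 0.90 on the log2 scale, and MMACHC, which strips the upper ligand of cobalamin, fell by 0.39 and 0.66. The lysosomal exporter ABCD4 rose by 0.70 and 0.68. MMAB, which makes the adenosyl form for the mitochondrial mutase, rose by 0.47 in 0X-Cys and fell by 0.48 in 10X-Cys. MMADHC fell by 0.43 in 0X-Cys (limma adjusted p = 0.000171) and was at 0.03 in 10X-Cys. In 0X-Cys the calls of CD320, MMACHC and ABCD4 were lost without either 0X-Cys library. That of MMADHC was lost without 0X-Cys replicate 1 only, whereas that of MMAB was kept. In 10X-Cys the call of MMAA was lost in 8 of 20 alternatives.

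Of the 12 genes of methionine salvage and polyamine synthesis, 1 rose and 3 fell in 0X-Cys (7.39% and 8.51% of all genes). In 10X-Cys, 1 rose and 8 fell (23.1% and 22.9% of all genes). The gene that rose in both was SAT1, the acetyltransferase that breaks polyamines down, at 0.56 (limma adjusted p = 0.000113) and 1.54 (limma adjusted p = 9.20e-14). SRM, spermidine synthase, was at -0.11 in 0X-Cys (limma adjusted p = 0.184) and fell by 0.81 in 10X-Cys (limma adjusted p = 1.16e-10). The salvage enzymes MRI1 and ENOPH1 fell by 0.62 and 0.53 in 10X-Cys, and ODC1, which makes putrescine, fell by 0.35. AMD1, which decarboxylates SAM, fell by 0.54 in 0X-Cys. The list median was -0.15 in 0X-Cys and -0.25 in 10X-Cys. Without 0X-Cys replicate 2 the calls of SAT1, AZIN1 and OAZ1 in 0X-Cys were lost, which left AMD1. In 10X-Cys the calls of MTAP and OAZ1 were lost in 9 and 10 of 20 alternatives, the scalings among them.

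Among 5 genes that sense SAM, carry it into mitochondria (SLC25A26) or act on MAT2A mRNA, METTL16 alone was called in 0X-Cys, where 15.9% of all genes were. In 10X-Cys 2 rose and 2 fell, against 23.1% and 22.9% of all genes. SAMTOR, a SAM sensor upstream of mTORC1, rose by 0.60 and the m6A reader YTHDC1 by 0.21, while NUDT21, a 3′ end processing factor, fell by 0.25 beside METTL16. Of 9 small-molecule methyltransferases, 6 passed the filter, and 1 fell in 0X-Cys and 4 in 10X-Cys, where 8.51% and 22.9% of all genes fell. The first was TPMT, which methylates thiopurines, and its call in 0X-Cys was lost in 5 alternatives, including without either 0X-Cys library. GAMT, which makes creatine, was at 0.53 in 0X-Cys (limma adjusted p = 0.0211) and fell by 1.37 in 10X-Cys (limma adjusted p = 6.37e-08), and the list median there was -0.46.

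The remaining list held enzymes that stand in for or feed the members, and 4 of 6 passed the filter. ADK, which clears the adenosine that AHCY releases, fell by 0.18 in 10X-Cys, and this call was lost with each of the 3 other scalings, without 1X-Cys replicate 2 and without 10X-Cys replicate 3. MAT1A, the liver form of the SAM synthetase, had normalized counts of 14.1 to 50.8, and it differed by 0.19 on the log2 scale in 0X-Cys (limma adjusted p = 0.671) and by -0.63 in 10X-Cys (limma adjusted p = 0.0742). The betaine-dependent methyltransferases BHMT and BHMT2 did not pass the filter.

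**Figure D4:**
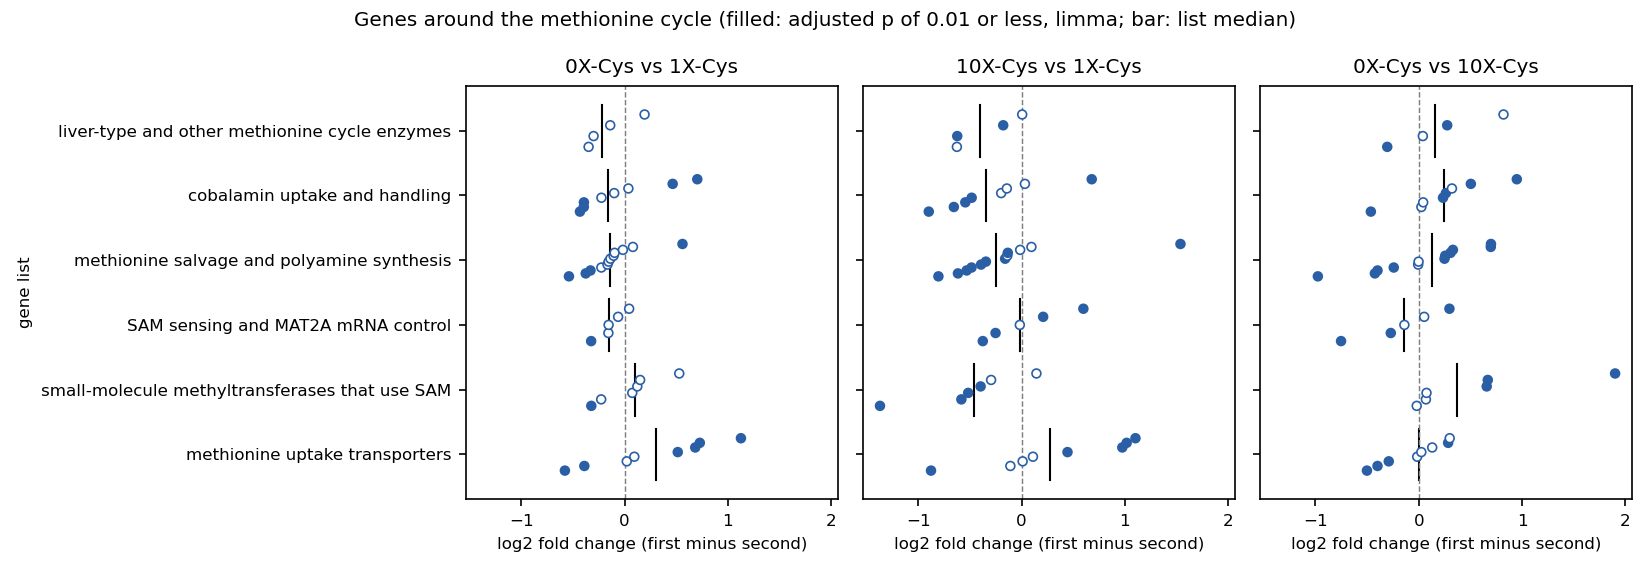
Log2 fold change (horizontal axes, first group minus second) of the genes of 6 lists around the methionine cycle, in 3 panels for the 3 comparisons. Filled points passed the threshold of 0.01 on limma's adjusted p, open points do not, and the black bar is the list median. The transporter median lies to the right in both comparisons with 1X-Cys (0.31 and 0.28), and the salvage and polyamine list has 8 filled points to the left in 10X-Cys and SAT1 alone to the right.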

How the data were processed

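RNA-seq was measured in 10 libraries of HEK293T cells, grouped by the medium in their labels. The replicate number in the paper's legend differs from that in the labels for 0X-Cys and 1X-Cys, and all labelled libraries were used. The authors deposited 1 table of signal values per gene, that is, read counts divided by DESeq2 size factors. Per the paper's methods and the submitters' processing notes they aligned with STAR 2.7.10b to GRCh38 with Ensembl genes. The methods name featureCounts with reads over several genes discarded, and the notes name HTSeq. The kit keeps strand. The Ensembl release and the strand, pair and multiple-match settings are not given in the sources used here. In each library 100% of values were whole multiples of 1 step (tolerance 0.01), from which reads were recovered, with a median of 40850703.5 per library.

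Of 78894 IDs, 61463 were in GENCODE 44. The filter kept genes that reached a value of 10 in 3 or more libraries. Log2(value + 1) was fitted per pair of groups with limma 3.58.1 (eBayes with a trend) in R 4.3.3, and fold changes are on that scale, which understates low genes. The largest adjusted p allowed for a call was 0.01. Exact permutation tests (scipy 1.17.1), 2-sided, double the smaller tail. Tested on simulated data with 200 of 29045 genes changed, the fit called 172 of them in 0X-Cys vs 1X-Cys. It called 183 in 10X-Cys vs 1X-Cys and 181 in 0X-Cys vs 10X-Cys. Unchanged genes called were 3, 4 and 5 in these comparisons, in that order. In the data 4618, 13372 and 13954 genes were called there, and the fit with that many genes changed was not tested.

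On the recovered reads, edgeR 4.0.16 (quasi-likelihood, TMM) called 4941, 13525 and 13834 genes in those comparisons, and DESeq2 1.42.0 called 5435, 13816 and 13126. Other alternatives were pseudocounts, filters, scalings, thresholds, all groups in 1 fit, a replicate block and leaving out each library. The genes named are the members, genes of the 6 lists (1 result is not reported here), genes that share exon bases or sequence with a member, and the 3 most alike by Pearson r among protein-coding genes with a mean of 100 or more. The members and lists were chosen with earlier results of these data known. Promoter windows came from RefSeq (GRCh38.p14).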

Additional observations from a re-analysis of the deposited data

Results flagged for a closer look

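For 5 members the changes against 1X-Cys differed between 0X-Cys and 10X-Cys by limma's test of the difference itself, which equals the direct comparison of these media. The log2 difference, 0X-Cys minus 10X-Cys, was 0.8325 for MTR, which rose in one medium and fell in the other. It was -0.7495 for CTH, which rose in both, 0.2931 for MAT2A and 0.2152 for CBS. It was -0.135 for AHCY, where neither change against 1X-Cys was called and the difference was lost without either 0X-Cys library, without 10X-Cys replicate 4, with all 3 groups in 1 fit and with a replicate block. No library stood apart by Dixon's criterion at 95% in the 16 groups of 4 values that the members give.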

How the results depend on the processing

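Of 472 member values under other settings, 420 kept their direction and side of the threshold, 33 fell short of it, 8 newly passed it and 11 changed sign, all 11 for members not called. In 0X-Cys, MTRR turned positive with edgeR (0.0023), equal totals (0.0145), equal totals over nuclear genes (0.0255) and without 0X-Cys replicate 1, 1X-Cys replicate 1 or 1X-Cys replicate 2, its range over libraries left out being -0.0641 to 0.0450. AHCYL1 turned negative there without 1X-Cys replicate 3, its range being -0.0110 to 0.0304. AHCY in 10X-Cys turned positive with equal totals (0.0792), equal totals over nuclear genes (0.0116) and quantile normalization (0.0505). The cause was not tested.

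Requiring a 2-fold change left 609, 2942 and 3610 genes in 0X-Cys vs 1X-Cys, 10X-Cys vs 1X-Cys and 0X-Cys vs 10X-Cys, with 1, 1 and 0 members, where limma gave 6 members an unadjusted p under 0.05 in the last and edgeR and DESeq2 each called 5 without the fold. An adjusted p of 0.05 called 7987 genes in 0X-Cys vs 1X-Cys. Leaving out 1 library gave 978 to 6300, 11958 to 13691 and 11593 to 13334 genes, and 1 to 4, 3 to 4 and 4 to 5 members. In 0X-Cys vs 1X-Cys the number was 1198 without 0X-Cys replicate 1, 978 without 0X-Cys replicate 2, 2968 without 1X-Cys replicate 1 and 2795 without 1X-Cys replicate 2, with 1, 1, 3 and 2 members; a lone library is assumed to vary like the other group.

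Libraries of 1 replicate number did not deviate together (correlations -0.0281 to 0.0392). These values show no shared effect but cannot tell whether the libraries were prepared as pairs, which the labels do not say. With a replicate block 6532, 13392 and 12393 genes and 4, 4 and 4 members were called, the AHCY difference of 0X-Cys from 10X-Cys being lost (-0.11, limma adjusted p = 0.0115), and AHCYL1 in 0X-Cys was -0.0108.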

Other observations

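The RefSeq promoter windows (300 bases around each start, GRCh38.p14) held entries for 7 of the 8 members. The C/EBP-ATF composite letters TGATGNAA, searched on both strands, occur in 3.62% of all 35116 windows and in those of 0 members, CTH included. The antioxidant response letters TGACNNNGC occur in 13.3% of windows and in 1 window each of CBS and AHCYL1. The E-box CACGTG occurs in 7.26% of windows and in those of 0 members. These letters are a description of the windows.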
